A study of Mus musculus with 20 samples.

Results

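The genes described here are the 4 opioid receptor genes and the 3 opioid peptide precursor genes of the mouse, 7 of the 57180 gene identifiers in the deposited count table. They were chosen by name: Oprm1 (mu receptor), Oprd1 (delta receptor), Oprk1 (kappa receptor), Oprl1 (nociceptin receptor), Penk (proenkephalin), Pdyn (prodynorphin) and Pnoc (prepronociceptin). All 7 were found in the table. RNA was sequenced from tissue punches of 2 brain regions, the paraventricular thalamic nucleus (PVT, a midline nucleus involved in wakefulness and avoidance) and the posterior insular cortex (pIC, a cortical area for pain and body state). The mice had been given vehicle or a single intraperitoneal dose of streptozotocin (STZ, 200 mg/kg), which kills pancreatic beta cells, produces diabetes and serves here as a model of painful diabetic neuropathy, and tissue was taken at week 7. The 4 groups were PVT control (n = 4 libraries), PVT STZ (n = 6), pIC control (n = 4) and pIC STZ (n = 6). The labels used here give no strain, sex or age, and they do not say whether the PVT and pIC libraries with the same animal-like label came from 1 mouse.

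Opioid receptors couple to inhibitory G proteins, which open inwardly rectifying potassium channels, close calcium channels and lower cyclic AMP, so that the neuron becomes less active. Their ligands are cut from large precursors at pairs of basic residues: enkephalins act mainly on delta and mu receptors, dynorphins on kappa receptors and nociceptin on the nociceptin receptor. Mu agonists relieve pain, kappa agonists are aversive, and in the forebrain enkephalin and dynorphin are best known as the peptides of the indirect and direct pathway neurons of the striatum.

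The precursors differ in how many peptides 1 transcript can give, which is shown by their coding sequences (mouse, GENCODE M21 transcripts of GRCm38, sense strand, read 5′ to 3′). Capitals mark the 15 bases that encode the 5-residue core, with 6 bases on each side. Penk, with 268 codons, holds 6 copies of the Met-enkephalin core and 1 of the Leu-enkephalin core. Pdyn, with 248 codons, holds 3 copies that begin with Leu-enkephalin, in order those of neoendorphin, dynorphin A and dynorphin B. Pnoc, with 187 codons, holds 1 nociceptin, which begins with phenylalanine in place of tyrosine. Each copy is preceded by 2 codons of basic residues, the cleavage site.
Penk copy 1: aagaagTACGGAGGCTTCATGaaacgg
Penk copy 4: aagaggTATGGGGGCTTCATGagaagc
Penk copy 6: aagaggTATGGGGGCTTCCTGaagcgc
Penk copy 7: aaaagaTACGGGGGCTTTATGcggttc
Pdyn copy 1: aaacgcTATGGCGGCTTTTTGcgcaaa
Pdyn copy 2: aaacgcTATGGGGGCTTCCTGcggcgc
Pdyn copy 3: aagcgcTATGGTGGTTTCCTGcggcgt
Pnoc copy 1: aaaaggTTTGGGGGCTTCACCggggcc

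The 4 receptors are close relatives, and reads of one could in principle be taken for another. Their coding sequences were 64.8% (Oprk1 and Oprl1) to 70.3% (Oprm1 with Oprd1 or Oprk1) identical over the aligned bases. One stretch, picked for a motif that all 4 share and not for its conservation, is shown to make this visible. It holds 54 bases around the codons of the Asp-Arg-Tyr motif (in capitals) at the inner end of the third transmembrane helix, which is part of the G protein coupling site. Within it 36 (Oprd1 and Oprl1) to 47 (Oprd1 and Oprk1) of the 54 bases were the same.
Oprm1: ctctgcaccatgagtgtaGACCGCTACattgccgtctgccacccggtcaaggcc
Oprd1: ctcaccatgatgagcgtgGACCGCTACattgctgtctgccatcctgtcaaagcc
Oprk1: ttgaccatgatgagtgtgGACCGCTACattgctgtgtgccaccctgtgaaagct
Oprl1: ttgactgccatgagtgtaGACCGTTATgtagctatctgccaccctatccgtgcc

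Libraries held 17.9 M to 25.5 M counts. Levels are given as CPM, counts scaled to a common library size with TMM factors over all 20 libraries, and levels of different genes are compared only as CPM per kilobase of exon. The punches varied in what they contained. In PVT libraries the thalamic transcription factor Tcf7l2 ran from 7.15 to 160 CPM, against 2.8 to 4.41 CPM in pIC libraries. The sum of 16 markers of striatal projection neurons, a cell type of neither region, ran from 808 to 5110 CPM in PVT STZ libraries, from 819 to 2480 in PVT control, from 984 to 5350 in pIC STZ and from 985 to 2360 in pIC control, and none of the 16 was at 0 in all libraries of a group. Which cells gave the striatal markers was not tested. The sum of 13 markers of cortical excitatory neurons was 1940 to 3110 CPM in pIC libraries and 408 to 1280 in PVT libraries. The sum of 8 ependyma markers was 106 to 142 CPM in PVT control and 65.5 to 88.8 in PVT STZ libraries, without overlap. For 9 oligodendrocyte markers the mean log2 CPM was 8.52 to 8.81 and 8.05 to 8.47, though their sums overlapped (8170 to 10200 and 6660 to 9290 CPM). The part of these in the STZ comparisons in PVT was not tested. PVT control replicate 4 held growth hormone (Gh) at 11800 CPM, and with it Pomc, the precursor of beta-endorphin and of pituitary hormones, at 832 CPM. Since the tissue is bulk, fewer cells of a type and less RNA per cell cannot be told apart. The labels do not state that replicates came from separate animals, so p-values measure the spread between these libraries.

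Per kilobase of exon, Penk was the most abundant of the 7 transcripts and Oprm1 the least in all 4 groups. In PVT control libraries the mean level was 147 CPM per kb for Penk, 20.3 for Pdyn, 15.5 for Oprl1, 10.7 for Pnoc, 1.26 for Oprd1, 1.25 for Oprk1 and 0.0885 for Oprm1. Neighbours in that order whose ranges over libraries overlapped were Pdyn and Oprl1, Oprl1 and Pnoc, and Oprd1 and Oprk1. In pIC control libraries the order was Penk (69.5 CPM per kb), Pdyn (12.4), Oprl1 (9.35), Oprd1 (3.64), Pnoc (3.2), Oprk1 (0.797) and Oprm1 (0.0355). There the overlapping neighbours were Pdyn with Oprl1 and Oprd1 with Pnoc. Among the receptors, the nociceptin receptor was thus the most abundant in both regions on this scale. In STZ libraries the order was the same in each region, with Penk at 228 CPM per kb in PVT and 137 in pIC.

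**Figure D1:**
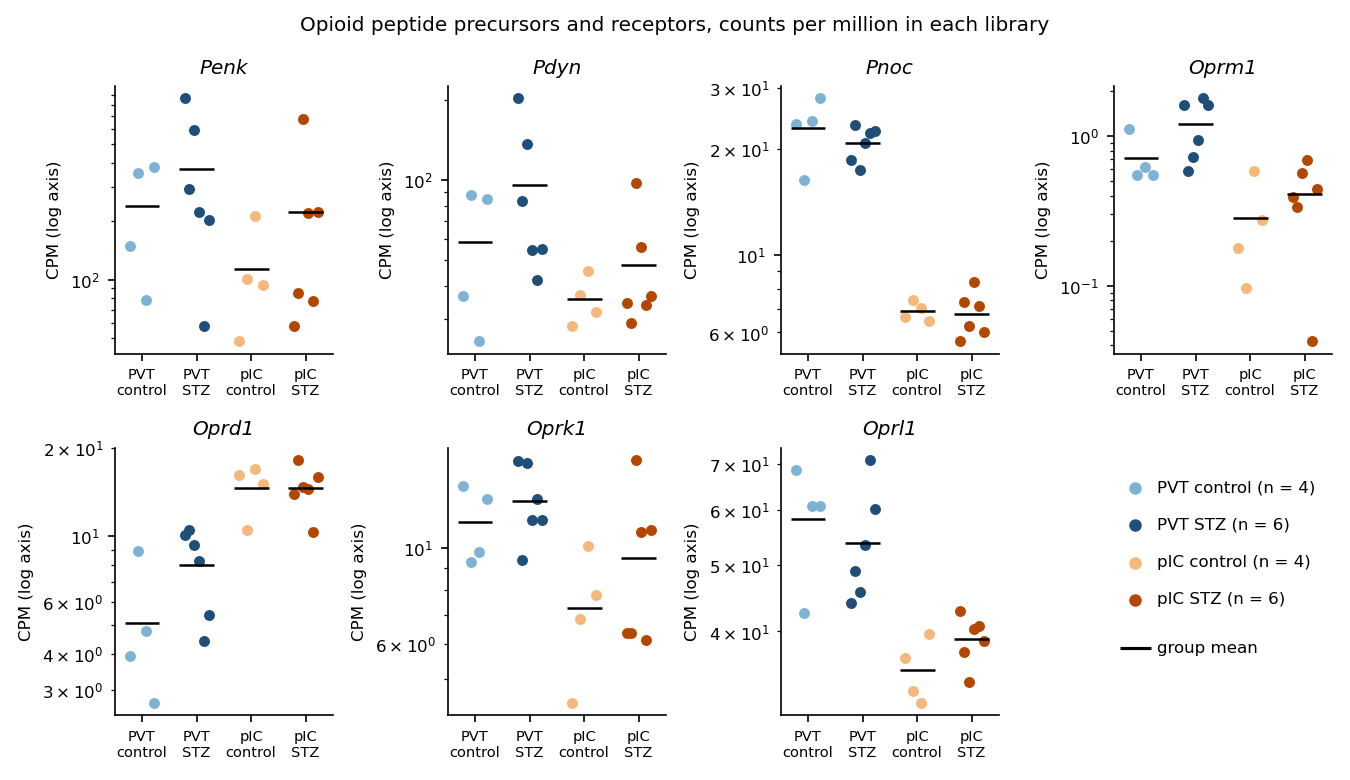
Level of each opioid gene in each library, in CPM on a log axis, by group; points are libraries and bars are group means. Pnoc is 16.4 to 28 CPM in every PVT library and 5.66 to 8.37 in every pIC library, whereas Penk runs from 48 to 864 CPM over the libraries of both regions.

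STZ against vehicle was compared first, for the question of whether opioid genes differ in diabetic mice with neuropathy. In the PVT none of the 7 passed the test. Of all 17076 genes tested there, 2.07% were called (edgeR quasi-likelihood test, Benjamini-Hochberg adjusted p under 0.05). None of the 7 had an unadjusted p under 0.05, and DESeq2 also called 0. In no gene were the 2 groups free of overlap, against 6.2% of all genes. The median log2 difference (STZ minus control) of the 7 was 0.64, with 5 of 7 above 0, beside a median of 0 over all genes. Of the 5, Penk and Pdyn moved with striatal markers over the libraries, by the correlations given after these comparisons.

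Among the precursors in PVT, Penk was 149, 354, 78.2 and 379 CPM in control replicates 1 to 4. In the 6 STZ libraries its lowest, median and highest levels were 57.4, 260 and 864 CPM. The STZ libraries thus held both the lowest and the highest value, and the control libraries fell inside their range. The log2 difference was 0.64 (SE 0.693, 95% interval −0.91 to 2.18, adjusted p = 0.685 by edgeR), so a change of more than 4 fold in the upward direction lay inside the interval. Without STZ replicate 1, the library at 864 CPM, it was 0.195. Pdyn was 36.6, 88.1, 24.8 and 85.1 CPM in control replicates 1 to 4 and 42.1, 69.1 and 203 CPM (lowest, median, highest) in STZ libraries, with overlapping ranges. Its log2 difference was 0.70 (SE 0.524, 95% interval −0.46 to 1.87, edgeR adjusted p = 0.529), and 0.34 without STZ replicate 1. Pnoc varied little, with 23.7, 16.4, 24.1 and 28 CPM in control libraries and 17.5, 21.5 and 23.5 CPM (lowest, median, highest) in STZ libraries. Its log2 difference was −0.15 (SE 0.138, 95% interval −0.45 to 0.16).

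Among the receptors in PVT, Oprm1 was low, with 22, 12, 14 and 15 counts (1.12, 0.553, 0.624 and 0.551 CPM) in control replicates 1 to 4. In STZ libraries it was 0.589, 1.28 and 1.8 CPM (lowest, median, highest), at 13 to 44 counts. Control replicates 2 to 4 lay close together at the low end, and 3 of the 6 STZ libraries lay at 1.62 CPM or above. The log2 difference of 0.78 (SE 0.375, 95% interval −0.04 to 1.61) did not pass the edgeR test, with an adjusted p of 0.307. Oprd1 was 3.91, 8.9, 4.77 and 2.72 CPM in control libraries and 4.42, 8.81 and 10.5 CPM (lowest, median, highest) in STZ libraries. The ranges overlapped, and the log2 difference was 0.66 (SE 0.347, 95% interval −0.11 to 1.43, edgeR adjusted p = 0.359). Without control replicate 2 it was 1.08 (adjusted p = 0.0988). With the thalamus marker score of each library as a covariate, the Oprd1 difference was 0.72 (SE 0.231), and its adjusted p of 0.0877 was the lowest over 21 settings, in which it reached 0.67. Oprk1 (11.5 ± 2.27 CPM in control and 12.9 ± 2.56 in STZ libraries, mean ± SD, n = 4 and 6) had a log2 difference of 0.16 with a 95% interval of −0.21 to 0.53. For Oprl1 (58.3 ± 11.1 and 53.9 ± 10.3 CPM) it was −0.12 with an interval of −0.47 to 0.24, which did not reach a change of 2 fold in either direction.

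In the pIC, Oprm1 had too few counts to pass the filter on low counts, and none of the other 6 genes passed the test. Among all 16189 genes tested there 1.4% were called by edgeR. None of the 6 had an unadjusted p under 0.05, DESeq2 called 0, and the groups overlapped for each of the 7 (4.28% of all genes did not overlap). The median log2 difference of the 6 was 0.26, beside 0 over all genes.

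Penk in pIC was 48, 101, 212 and 93.5 CPM in control replicates 1 to 4 and 57.4, 153 and 674 CPM (lowest, median, highest) in STZ libraries. STZ replicate 3 stood alone at 674 CPM, and the next highest STZ library was at 224 CPM. The log2 difference was 0.98 (SE 0.799, 95% interval −0.85 to 2.81, edgeR adjusted p = 0.709), and without STZ replicate 3 it was 0.228. Pdyn was 28.2, 36.9, 45.7 and 32.1 CPM in control libraries and 29.1, 35.5 and 97.5 CPM in STZ libraries, again with replicate 3 the highest (log2 difference 0.43, 95% interval −0.41 to 1.27, and 0.089 without that library). Pnoc was 6.9 ± 0.433 CPM in control and 6.8 ± 1.01 in STZ libraries (mean ± SD, n = 4 and 6). Its interval was −0.27 to 0.23 around a log2 difference of −0.02.

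Of the receptors in pIC, Oprk1 was 4.4, 6.85, 10.1 and 7.81 CPM in control libraries and 6.15, 8.66 and 16 CPM (lowest, median, highest) in STZ libraries. STZ replicate 3 was again the highest, and the log2 difference was 0.38 (SE 0.331, 95% interval −0.36 to 1.12, edgeR adjusted p = 0.724), or 0.159 without that library. Oprl1 was 36.6, 32.8, 31.5 and 39.6 CPM in control libraries and 33.8, 39.6 and 42.8 CPM in STZ libraries, with a log2 difference of 0.15 (SE 0.0776, 95% interval −0.02 to 0.32). Oprd1 was 14.6 CPM on average in both groups (SD 2.87 in control and 2.57 in STZ), with an interval of −0.35 to 0.33. Oprm1 had 2 to 12 counts in control and 1 to 14 counts in STZ libraries. Fitted without the filter, its log2 difference was 0.52 (SE 0.531, 95% interval −0.57 to 1.62, edgeR adjusted p = 0.715).

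**Figure D2:**
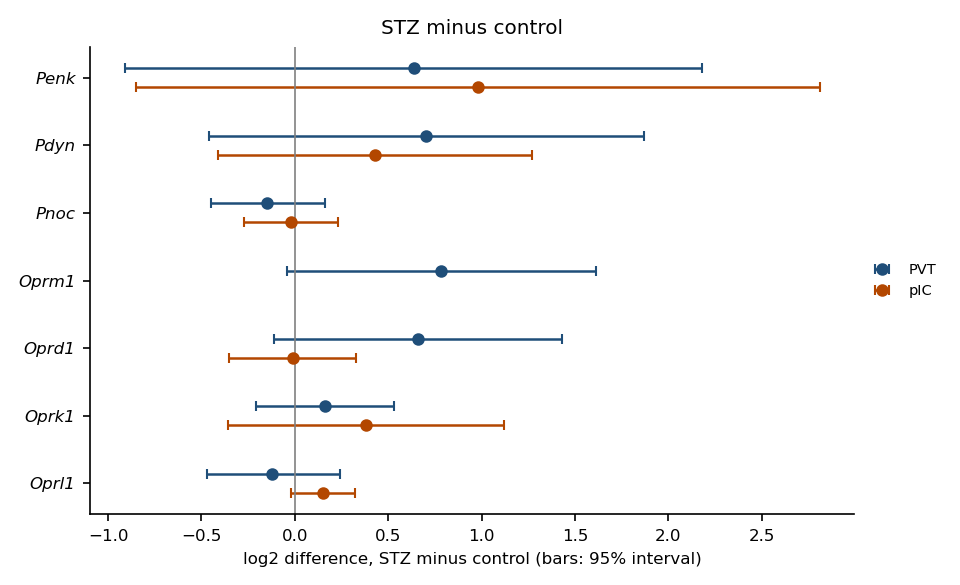
Log2 difference between STZ and control libraries for each opioid gene in PVT and in pIC; points are edgeR estimates and bars their 95% intervals, with no point for Oprm1 in pIC, which was not tested. Every interval includes 0, and those of Penk are the widest, −0.91 to 2.18 in PVT and −0.85 to 2.81 in pIC.

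The STZ effects in the 2 regions were compared by a region-by-treatment interaction in all 20 libraries. None of the 7 was called, and of 17427 genes tested 0% were called by edgeR (701 had an unadjusted p under 0.05, and DESeq2 called 4, none of them an opioid gene). The largest interaction estimate was that of Oprd1, whose PVT effect exceeded its pIC effect by 0.65 on the log2 scale (SE 0.392, 95% interval −0.17 to 1.48). For Penk it was −0.36 with an interval of −2.56 to 1.84.

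Penk followed the striatal markers in both regions, and Pdyn did so in PVT. The markers were summarised as a score, the mean log2 CPM of 13 striatal markers (the list without 3 genes that also belong to the opioid signalling lists below). Penk in PVT had a Pearson r of 0.997 with the score over 10 libraries (permutation p = 1.0e-05, the smallest that 100000 resamples can give, adjusted p = 8.4e-04) and a Spearman rho of 0.988 (permutation p = 3.0e-05). Without the 2 libraries farthest from the median score r was 0.992, and within the 6 STZ libraries 0.998. Penk in PVT also fell with the thalamus, habenula and hypothalamus scores, with r = −0.849, −0.836 and −0.754 (adjusted permutation p = 0.0158, 0.0158 and 0.0341). Without the 2 farthest libraries the adjusted p of these was 0.0542, 0.0723 and 0.155. In pIC, Penk had r = 0.986 (permutation p = 3.0e-05, adjusted p = 0.00126) and rho = 0.939 (permutation p = 2.5e-04), with r = 0.971 without the 2 farthest libraries and 0.997 within the 6 STZ libraries. The other 5 scores moved with Penk in pIC too, with r = 0.830 for thalamus, 0.834 for habenula, 0.753 for hypothalamus, 0.749 for claustrum and −0.801 for cortical excitatory neurons (adjusted permutation p = 0.0158 to 0.0341). Without the 2 farthest libraries only the habenula relation of these passed (r = 0.854, adjusted p = 0.0437). Drd2, a dopamine receptor of striatal enkephalin neurons, reached 95.6 CPM in the PVT library and 105 CPM in the pIC library with the most Penk.

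Pdyn in PVT had r = 0.928 with the striatal score (permutation p = 2.3e-04, adjusted p = 0.00504), rho = 0.952 (permutation p = 1.0e-04), r = 0.977 without the 2 farthest libraries and 0.941 within the 6 STZ libraries. With the thalamus, habenula and hypothalamus scores its r in PVT was −0.750, −0.753 and −0.713 (adjusted permutation p = 0.0341, 0.0341 and 0.0526). Without the 2 farthest libraries the thalamus relation passed (r = −0.881, adjusted p = 0.0437), and the habenula relation did not (r = −0.843, adjusted p = 0.0572). In pIC Pdyn had r = 0.873 with the striatal score (permutation p = 0.00233, adjusted p = 0.0158) and rho = 0.733 (permutation p = 0.0203, adjusted p = 0.0742). Without the 2 farthest libraries its r in pIC was 0.636 and did not pass (exact permutation p = 0.0898, adjusted p = 0.228). With the claustrum score Pdyn in pIC passed by both measures (r = 0.794, adjusted permutation p = 0.0158, rho = 0.842, adjusted p = 0.0256). Without the 2 farthest libraries that r was 0.728 (adjusted p = 0.144). With the thalamus, hypothalamus and habenula scores its r was 0.803, 0.757 and 0.708 (adjusted p = 0.0233, 0.0167 and 0.0341). In pIC its r was −0.891 with the cortical excitatory score (permutation p = 0.00245, adjusted p = 0.0158, rho = −0.721, r = −0.807 without the 2 farthest libraries, adjusted p = 0.0828).

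The kappa receptor gene Oprk1 followed the striatal score in pIC, with r = 0.939 (permutation p = 2.4e-04, adjusted p = 0.00504) and rho = 0.927 (permutation p = 4.0e-04). Without the 2 farthest libraries r was 0.892 and within the 6 STZ libraries 0.975. Other scores moved with Oprk1 in pIC too, with r = 0.852 for habenula, 0.832 for thalamus, 0.781 for claustrum and −0.788 for cortical excitatory neurons (adjusted permutation p = 0.0158 to 0.0284). Without the 2 farthest libraries only the habenula relation of these passed (r = 0.894, adjusted p = 0.0437). In PVT the relation of Oprk1 to the striatal score was weaker, with r = 0.401 (permutation p = 0.249). The difference between the regions was not tested. Oprl1 in PVT ran opposite to the striatal score, with r = −0.801 (permutation p = 0.00521, adjusted p = 0.0233) and rho = −0.818, but without the 2 farthest libraries its r was −0.654 (exact permutation p = 0.0743). Within the 6 STZ libraries it was −0.961 (exact permutation p = 0.00139, adjusted p = 0.0292). It rose with the thalamus marker score (r = 0.850, permutation p = 0.00313, adjusted p = 0.0167, rho = 0.855, r = 0.831 without the 2 farthest libraries, adjusted p = 0.0868, and 0.971 within the 6 STZ libraries, adjusted p = 0.0437). Oprl1 in PVT also rose with the habenula and hypothalamus scores (r = 0.821 and 0.813, adjusted permutation p = 0.0264 for each). Without the 2 farthest libraries the adjusted p of these was 0.144 and 0.124. Oprm1 in pIC rose with the thalamus score (r = 0.834, permutation p = 0.00318, adjusted p = 0.0167, rho = 0.867, adjusted p = 0.0219). Without the 2 farthest libraries its r was 0.849 (adjusted p = 0.0572), and within the 6 STZ libraries 0.869 (adjusted p = 0.0333). The thalamus score ran only from 3.01 to 3.61 in pIC libraries, against 4.44 to 7.03 in PVT libraries. Oprm1 had 1 to 14 counts a library in pIC and did not pass the filter on low counts there. Pnoc had no relation to the striatal score that passed, with r = −0.492 in PVT and 0.037 in pIC. With the claustrum score Pnoc in PVT had r = −0.722 (adjusted permutation p = 0.0481) and rho = −0.624 (adjusted p = 0.123). Without the 2 farthest libraries that r was −0.474 (adjusted p = 0.394). In all, 84 relations were computed (7 genes, 6 marker lists, 2 regions). Of these 32 passed by r, 15 by both r and rho, 8 without the 2 farthest libraries and 8 within the 6 STZ libraries.

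**Figure D3:**
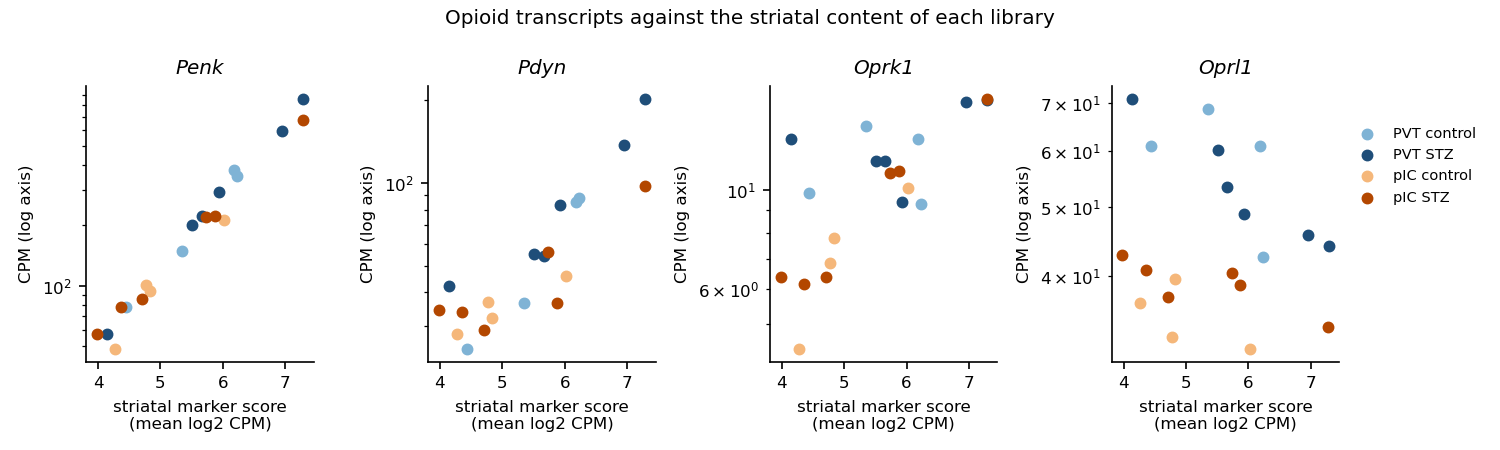
CPM (log axis) of Penk, Pdyn, Oprk1 and Oprl1 against the striatal marker score (mean log2 CPM) of each library, coloured by group. Penk lies close to 1 rising line in both regions (r = 0.997 in PVT and 0.986 in pIC), and Oprl1 falls along the score in PVT (r = −0.801).

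**Figure D4:**
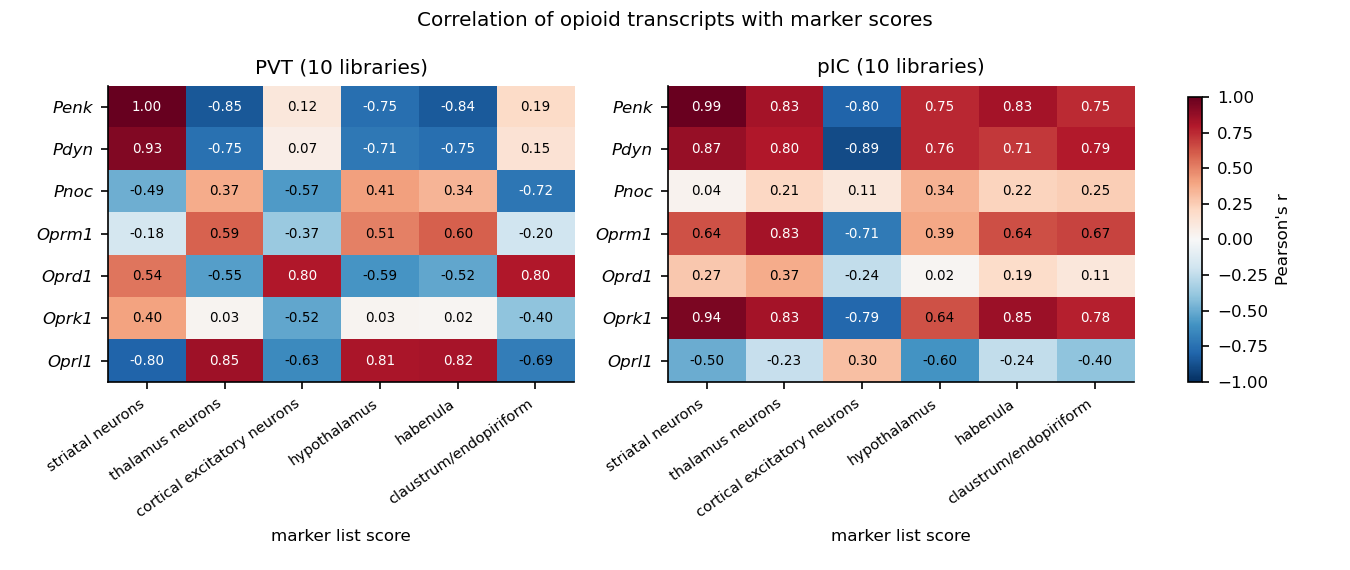
Pearson's r of each opioid gene with 6 marker scores over the 10 libraries of PVT (left) and of pIC (right), with its value in each cell. In PVT, Penk and Pdyn have positive r with the striatal score and negative r with the thalamus score, and Oprl1 has the opposite signs.

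The striatal score also entered the STZ comparison as a covariate, there as the mean log2 CPM of all 16 markers, signalling genes included. With it the Penk difference in PVT became −0.03 on the log2 scale (SE 0.0741, 95% interval −0.2 to 0.13), in place of 0.64. In pIC it became 0.21 (SE 0.0836, 95% interval 0.03 to 0.39, edgeR adjusted p = 0.266), in place of 0.98. Penk itself ran with the 13-marker score (r = 0.997 in PVT and 0.986 in pIC), so this fit left it little room to differ. For Pdyn the covariate gave 0.36 in PVT (SE 0.18) and 0.16 in pIC (SE 0.16), and for Oprk1 in pIC 0.15 (SE 0.113), each below its value without it. With the thalamus score as the covariate in PVT, the difference was 0.68 for Penk (SE 0.377, 95% interval −0.19 to 1.55, edgeR adjusted p = 0.306) and 0.82 for Pdyn (SE 0.294, 95% interval 0.14 to 1.49, adjusted p = 0.133). For Oprm1 in PVT the striatal score gave 0.85 (SE 0.37) and for Oprd1 in PVT 0.50 (SE 0.306). No opioid gene was called with either covariate. The part of punch content in the STZ differences was not tested. Without the 4 PVT libraries lowest in thalamus markers (control replicate 2 and STZ replicates 1, 2 and 3), a setting chosen after the data were seen, the Penk difference in PVT was −0.331, and again 0 of the 7 were called.

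The genes whose levels ran closest to each member were found over the 10 libraries of a region, among 13593 genes of at least 1 CPM in PVT and 13117 or 13118 in pIC, by Pearson's r of log2 CPM. For Penk in PVT they included Rgs9 (r = 0.994) and Gng7 (0.993), and in pIC they were Lrrc10b (0.992), Gpr6 (0.992) and Rgs9 (0.990). Rgs9, Gng7 and Gpr6 are known for striatal expression. They are themselves in the striatal marker list, though Gng7, also in an opioid signalling list, was left out of the score. They were picked by their r with Penk, so their values are not separate evidence of the striatal relation. For Pdyn in PVT they were Hbegf and Tac1 (both 0.980) and Syt6 (0.976), of which Tac1, the substance P precursor, is the peptide gene that dynorphin neurons of the striatum also use. For Oprk1 in pIC the closest gene of all was Penk itself (0.972), followed by Gpr6 (0.960) and Pbx3 (0.959). For Oprl1 in PVT they were Ctps2 (0.983), Rtl4 (0.981) and Grin2d (0.980), and for Oprd1 in PVT they included Ppp2r2c (0.982) and Klhl34 (0.980). For Pnoc they were Fibp (0.950) in PVT and Hax1 (0.889) in pIC, and for Oprm1 Arcn1 (0.928) and Ralgapa2 (0.962). These values describe libraries that share their punch content, and no test was made of them.

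Among the members themselves, 42 relations were computed after the values had been seen, and 6 passed by r, 2 by both r and rho, 1 without the 2 farthest libraries (Penk and Oprk1 in pIC) and 0 within the 6 STZ libraries. Penk and Pdyn had r = 0.928 in PVT (permutation p = 2.2e-04, adjusted p = 0.00462, rho = 0.939) and 0.903 in pIC (permutation p = 5.5e-04, adjusted p = 0.00577, rho = 0.818). Without the 2 farthest libraries r was 0.875 (adjusted p = 0.076) and 0.747 (adjusted p = 0.199). Penk and Oprk1 in pIC had r = 0.972 (permutation p = 5.0e-05, adjusted p = 0.0021, rho = 0.976) and 0.947 without the 2 farthest (adjusted p = 0.0312). Oprd1 and Oprl1 in PVT had r = −0.844 (permutation p = 0.00442, adjusted p = 0.0356) and rho = −0.842 (adjusted p = 0.0539). Without the 2 farthest libraries r was −0.815 with an adjusted p of 0.187, and within the 6 STZ libraries −0.954 with an adjusted p of 0.0729, so that only the first of these passed.

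The regions differed in Pnoc. It was 23.1 ± 4.84 CPM in PVT and 6.9 ± 0.433 in pIC of control mice (mean ± SD, n = 4 each), and 20.9 ± 2.38 against 6.8 ± 1.01 in STZ mice (n = 6 each). The lowest PVT library, at 16.4 CPM, was above the highest pIC library, at 8.37 CPM. The log2 difference (PVT minus pIC) was 1.75 in control mice (SE 0.151, 95% interval 1.42 to 2.08, adjusted p = 0.00137 by edgeR against a minimum fold of 2) and 1.62 in STZ mice (SE 0.105, 95% interval 1.39 to 1.84, edgeR adjusted p = 2.8e-04). Pnoc was the 1 of the 7 called in each comparison, where 4.7% of genes in control and 3.1% in STZ mice were called higher in PVT (5.25% and 3.6% in either direction). It was called in each of the 15 settings run for control and the 20 for STZ mice against that fold. The part of punch content in the Pnoc difference was not tested.

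Against no difference in place of a minimum fold, 5 of the 7 were called in control mice and 4 of the 7 in STZ mice, where 47.8% and 49.1% of all genes were. The groups did not overlap for 3 of 7 in control mice (Oprd1, Oprl1 and Pnoc, beside 45.4% of all genes) and for 2 of 7 in STZ mice (Oprl1 and Pnoc, beside 27.8%). The median log2 difference of the 7 was 0.74 and 0.73, beside 0.02 over all genes, and 6 of 7 were above 0 in each.

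The delta receptor gene Oprd1 was the one member with the lower estimate in PVT. In control mice it was 2.72 to 8.9 CPM in PVT and 10.5, 16.1, 16.9 and 15 CPM in the pIC libraries, with no overlap. The log2 difference was −1.53 (SE 0.333, 95% interval −2.29 to −0.77), with an adjusted p of 0.275 against a minimum fold of 2 and 0.00556 against no difference (edgeR). Control replicate 2, the PVT library at 8.9 CPM and the PVT control library lowest in thalamus markers, decided that call: without it the difference was −1.96 with an adjusted p of 0.0033, and over 15 settings the adjusted p ran from 0.0033 to 1. In STZ mice the difference was −0.87 (SE 0.204, 95% interval −1.31 to −0.42, edgeR adjusted p = 1 against the minimum fold and 0.00358 against no difference). Over PVT libraries Oprd1 rose with the cortical excitatory score (r = 0.804, permutation p = 0.00708, adjusted p = 0.0264, rho = 0.770). Without the 2 farthest libraries r was 0.558 and did not pass (adjusted p = 0.333). With the claustrum score r was 0.800 (adjusted p = 0.0233), and 0.511 without the 2 farthest libraries (adjusted p = 0.369). With the thalamus and habenula scores r was −0.550 and −0.519 (adjusted p = 0.185 and 0.216). Within the 6 STZ libraries these were −0.984 and −0.960 (adjusted p = 0.0333 and 0.0292). The part of cortical or thalamic content in the regional difference was not tested.

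Oprl1 was 58.3 ± 11.1 CPM in PVT and 35.1 ± 3.67 in pIC of control mice, a log2 difference of 0.74 (SE 0.139, 95% interval 0.43 to 1.05, edgeR adjusted p = 0.00167 against no difference and 1 against the minimum fold). In STZ mice it was 0.47 (SE 0.111, 95% interval 0.23 to 0.71, adjusted p = 0.00352 against no difference). Every PVT library, at 42.5 CPM or more in control and 44 or more in STZ mice, was above every pIC library of its treatment. For Oprm1 the difference was 1.30 (SE 0.479, edgeR adjusted p = 0.0429 against no difference) in control and 1.57 (SE 0.417, adjusted p = 0.00702) in STZ mice, on 1 to 44 counts a library and with overlapping ranges. A stretch of 96 exon bases of Oprm1 (1.2%) is also covered by Ipcef1 or Gm10945 on the other strand, and Ipcef1 was 122 to 168 CPM in pIC and 19.5 to 84.4 CPM in PVT. The strand setting of the counting is not given in the sources used here, and its part in the Oprm1 counts was not tested. Oprk1 differed by 0.67 (SE 0.235, adjusted p = 0.0403 against no difference) in control mice and by 0.44 (SE 0.24, adjusted p = 0.15) in STZ mice.

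The precursors Penk and Pdyn did not pass either test between the regions. Penk differed by 1.09 on the log2 scale in control mice (95% interval −0.44 to 2.62) and by 0.73 in STZ mice (−0.79 to 2.26), and Pdyn by 0.73 (−0.29 to 1.75) and 0.99 (0.06 to 1.93). Penk shares 233 exon bases (14.3%) with A830012C17Rik on the other strand, which had at most 7 counts in any library.

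**Figure D5:**
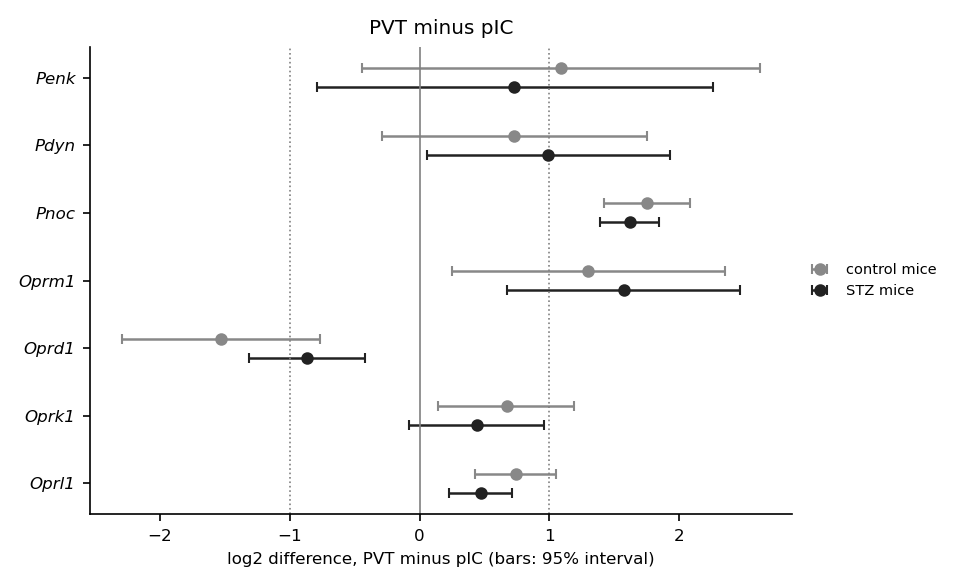
Log2 difference between PVT and pIC for each opioid gene, in control and in STZ mice; points are edgeR estimates, bars their 95% intervals and dotted lines the minimum fold of 2. Pnoc lies above the upper dotted line with its whole interval in control (1.42 to 2.08) and in STZ mice (1.39 to 1.84), and Oprd1 is the one gene below 0.

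The rest of the opioid pathway was read from 60 further genes in 8 lists: precursor processing, enkephalin-cleaving peptidases, inhibitory G protein subunits, RGS proteins, receptor kinases and arrestins, GIRK channels, adenylyl cyclases and other opioid-related genes. Under STZ 0 of 60 were called in PVT by edgeR (9 had an unadjusted p under 0.05, DESeq2 called 1) and 0 of the 59 tested in pIC (4 unadjusted, DESeq2 called 1). Over all genes 2.07% were called in PVT, where 3034 of 17076 had an unadjusted p under 0.05, and 1.4% in pIC, where 1915 of 16189 had one. In the interaction 0 of 60 were called (6 unadjusted, DESeq2 0), beside 701 of 17427 genes with an unadjusted p under 0.05. The list medians under STZ lay between −0.04 and 0.28 in PVT and between −0.18 and 0.05 in pIC, beside 0 over all genes.

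The 1 gene that DESeq2 called in PVT was Rgs8, a regulator that shortens the signal of inhibitory G proteins. It was 115 ± 10.5 CPM in control and 165 ± 26 in STZ libraries (mean ± SD, n = 4 and 6), a log2 difference of 0.52 (SE 0.12). Its adjusted p was 0.0531 by edgeR and ran from 0.00287 (DESeq2) to 0.183 over the settings. In pIC it was Rgs17, of the same family, at 90.6 ± 2.01 CPM in control and 99.7 ± 3.32 in STZ libraries. Its log2 difference was 0.14 (SE 0.0438), with an adjusted p of 0.174 by edgeR and from 0.045 to 0.406 over the settings. Of the other lists, the genes of smallest p in PVT were Pcsk2, a convertase that cuts the precursors (log2 difference 0.30, edgeR adjusted p = 0.229), Ace (−0.46, 0.286), Gnai2 (−0.17, 0.173), Grk3 (0.20, 0.405), Kcnj3 (0.18, 0.641) and Adcy3 (0.16, 0.256). The summed choroid plexus markers were 2940 to 5960 CPM in PVT control and 1330 to 3320 CPM in PVT STZ libraries, with overlapping ranges. The 8 ependyma markers summed to 106 to 142 CPM and 65.5 to 88.8 CPM, with no overlap. The part of either in the Ace difference was not tested. Pomc had an adjusted p of 0.127 and its difference rests on PVT control replicate 4. In pIC the corresponding genes were Pcsk1 (−0.18, 0.516), Ece1 (−0.21, 0.155), Gnai2 (−0.15, 0.231), Grk3 (0.08, 0.764), Kcnj9 (−0.16, 0.614), Adcy9 (0.24, 0.571) and Ogfr (−0.15, 0.434).

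Between the regions 3 of the 60 were higher and 0 lower in PVT against the minimum fold, in control and in STZ mice, beside 4.7% and 3.1% of all genes called higher. Against no difference 34 were called in each, beside 47.8% and 49.1% of all genes. Ace, a peptidase that can cleave enkephalins, was 67.3 ± 19.2 CPM in PVT and 11.7 ± 1.1 in pIC of control mice, a log2 difference of 2.53 (SE 0.196, edgeR adjusted p = 2.6e-04), and 1.82 in STZ mice (SE 0.157, adjusted p = 7.9e-04). Ece2, a related peptidase, was higher by 1.80 (SE 0.139, adjusted p = 5.2e-04) and 1.70 (SE 0.185, adjusted p = 0.00866). Kcnj5, a subunit of the potassium channels that opioid receptors open, was higher by 3.73 (SE 0.36, adjusted p = 1.9e-04) and 3.88 (SE 0.507, adjusted p = 0.00107), at 6.3 ± 2.59 against 0.471 ± 0.159 CPM in control mice. The choroid plexus, which is also known to make Ace, differed in the same direction: its 8 markers summed to 1330 to 5960 CPM in PVT libraries and 5.86 to 143 CPM in pIC libraries, and the part of this in the regional Ace difference was not tested.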

How the data were processed

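The authors deposited 1 table of raw counts per Ensembl gene for 20 poly(A)-selected, stranded libraries. GRCm39 is the build in the submitters' processing notes. The sources used here do not give the aligner, counting program or strand setting. The members and gene lists were chosen with earlier results of these data known. All 7 members were named in each comparison, and of each pathway list the called genes (up to 4) or the 1 of smallest p.

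Totals were 17.9 M to 24.5 M (PVT control), 21.7 M to 25.3 M (PVT STZ), 21.2 M to 23.3 M (pIC control) and 19 M to 25.5 M (pIC STZ). No 2 libraries of a group agreed within sampling noise. edgeR 4.0.16 (R 4.3.3) was fitted over all genes with TMM scaling and the robust quasi-likelihood test after filterByExpr (at least 10 counts, total at least 15), or glmTreat against a minimum fold of 2 between regions. Benjamini-Hochberg adjusted p under 0.05 was called. SE and 95% intervals are of the log2 difference. log2 CPM used a prior count of 2. The fits were tested on simulated data. DESeq2 1.42.0, other scalings, no filter, score covariates, blocks and leaving out each library were alternatives. Correlations used 100000 resamples over 10 libraries, two-sided, and exact enumeration over fewer. Symbols for 51884 identifiers, exon lengths and coding sequences came from GENCODE M21 (GRCm38), another build than the counts, so no positions are given. Some of the genes closest in pattern to a member are not reported here.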

Additional observations from a re-analysis of the deposited data

Results flagged for a closer look

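In 28 sets of levels (7 genes in 4 groups) 2 held a library far from the others of its group, and chance alone gives about 1 in 20. Oprm1 in PVT control libraries had its highest value, 1.12 CPM, in replicate 1, while the other 3 libraries lay between 0.551 and 0.624 CPM. These values rest on 12 to 22 counts. Penk in pIC STZ libraries had its highest value, 674 CPM, in replicate 3, and the next was 224 CPM. That library also had the highest pIC levels of Pdyn (97.5 CPM), Oprk1 (16 CPM) and of the summed striatal markers (5350 CPM).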

How the results depend on the processing

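No opioid gene was called under STZ in PVT, in pIC or in the interaction under any alternative run, leaving out each library included (0 to 0 in each). Pnoc was called between the regions under each. Opioid genes called against no difference were 5 in control and 4 in STZ mice. Without PVT control replicate 2, the only control library among the 4 PVT libraries lowest in thalamus markers, 2 were called in control mice, the second being Oprd1, and leaving out each library gave 1 to 2 in control and 1 to 1 in STZ mice. Estimates far from passing changed sign. With the striatal score Penk in PVT was −0.034, and without the 4 libraries lowest in thalamus markers it was −0.331, Oprk1 in PVT −0.019, the Pdyn interaction −0.399 and Penk between regions in STZ mice −0.485. Without the 2 PVT libraries highest in hypothalamus markers the interaction was −0.066 for Oprm1 and 0.052 for Penk. Oprd1 in pIC was 0.0017 without the filter, 0.0013 in 1 fit of all libraries, and 0.0049 to 0.078 (0.0075, 0.042, 0.075) without STZ replicate 1 or 5 or control replicate 1, 3 or 4, and as low as −0.132 without another library. Pnoc in pIC was 0.025, 0.0092 and 0.019 without STZ replicates 1 and 6 and control replicate 2, and −0.088 at the lowest. The interaction was −0.334 for Oprm1 without pIC control replicate 3 (up to 0.547 without another), 0.394 for Penk without pIC STZ replicate 3 (down to −0.841) and −0.093 for Pdyn without PVT STZ replicate 1 (up to 0.603). The cause was not tested.

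Counts over all genes moved more. In PVT, STZ called 353 genes, and 875 with DESeq2, 679 with all libraries in 1 fit, 636 with the striatal and 1118 with the thalamus score, 70 without the 4 libraries lowest in thalamus markers and 143 (without control replicate 4) to 343 when each library was left out. In pIC it called 226, and 455 with DESeq2, 390 with the striatal score and 128 (without control replicate 2) to 272 when each was left out. The interaction called 0, and 1 without the filter, 4 with DESeq2, 1 with the striatal score and 0 to 3 when each was left out. Between regions 873 and 594 became 7948 and 8089 against no difference, 908 in STZ mice without the 4 libraries, and 731 to 1212 and 529 to 715 when each was left out. Of 84 correlations 32 passed with all 10 libraries, 8 without the 2 farthest libraries and 8 within the 6 STZ libraries, and these were not all the same relations. The cause was not tested.

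The labels do not say that replicate numbers pair mice across treatments, and same-numbered libraries correlated from −0.261 to 0.44 in PVT and −0.041 to 0.298 in pIC. With the number as a replicate block, which also leaves out STZ replicates 5 and 6, 70 genes were called in PVT and 253 in pIC, and Oprd1 in pIC was 0.076. The same label in PVT and pIC gave correlations of −0.087 to 0.211, and a block by label called 0 (interaction), 785 (control) and 526 genes (STZ mice). No opioid call changed with a block. Depth limits Oprm1, with 1 to 44 counts a library.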
